A study of Arabidopsis thaliana with 5 samples.

Results

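The COR, KIN and dehydrin genes are a set of 10 Arabidopsis genes that are commonly used to follow cold and drought responses. They were chosen by locus, and all 10 were found among the 26650 genes and unnamed transcripts measured. The set holds COR15A (AT2G42540), COR15B (AT2G42530), KIN1 (AT5G15960), KIN2 (AT5G15970), COR47 (AT1G20440), ERD10 (AT1G20450), RD29A (AT5G52310, named LTI78 in RefSeq), RD29B (AT5G52300, named LTI65 in RefSeq), RAB18 (AT5G66400) and LTI30 (AT3G50970). They were measured in 12-day-old whole seedlings of wild type (2 arrays) and of the Atino80-5 mutant (3 arrays), on 1-colour Agilent expression arrays. Both genotypes grew on MS medium, in long days and at the usual growth temperature, with no cold, drought or hormone treatment named in the labels, so the values are levels without an applied stress. The mutant is named for INO80, a chromatin remodelling ATPase, and Atino80-5 is the only allele measured; the labels do not describe the mutation. The comparison asked whether the levels of these genes differed between the genotypes.

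As background, cold induces the CBF (DREB1) transcription factors, which bind the CRT/DRE element in the promoters of COR15A, KIN, COR47, ERD10, RD29A and related genes. Drought and salt raise abscisic acid (ABA), which acts through receptors of the PYR/PYL family, clade A protein phosphatases, SnRK2 kinases and the ABF transcription factors on promoters with the ABRE element, and RAB18 and RD29B are classical targets of this branch. The encoded proteins are hydrophilic: COR15A and COR15B protect chloroplast membranes during freezing, and dehydrins bind membranes and proteins as cells lose water.

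The arrays had 33699 to 35564 of 43603 probes well above background, or 77.3% to 81.6%. Atino80-5 array 3 lay alone on its slide, and the other 4 arrays shared slide 1. The INO80 probe A_84_P20358 read 9438 and 9289 (processed signal) on the wild type arrays against 62.2, 55.0 and 62.9 on the mutant arrays, which separates the labelled genotypes, while a second probe, A_84_P835513, rose by 1.90 on the log2 scale. Where these probes lie with respect to the mutation was not examined here. Whether arrays of the same genotype came from separate cultures is not given in the labels, so the p-values cover the spread among these 5 arrays, and that spread may be technical.

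The set did not move as 1 group. COR15A, RAB18 and RD29B were 4.60-fold, 4.83-fold and 5.53-fold lower in Atino80-5, and COR15B was 2.16-fold lower. RD29A was lower by a small amount, KIN1, KIN2, ERD10 and LTI30 were higher by small amounts, and COR47 did not pass the test. In counts, 4 of the 10 genes were called higher, 5 lower and 1 not called at an adjusted p under 0.05 in limma, with p-values adjusted over all genes tested. Across all genes tested 30.7% were called higher and 26.4% lower, together 57.2%, and 9 of the 10 genes, like 74.6% of all genes, showed no overlap between the arrays of the genotypes. Calls were thus common on these arrays, and nothing particular to the set is read from their number. At least 2-fold changes were found for 4 of the 10, all lower, and for 0 that were higher. Among all genes 2.62% were called lower and 4.61% higher by at least 2-fold. The median log2 change was -0.12 over the 10 genes and 0.01 over all genes tested. All 10 genes were well above background on all 5 arrays, and no spot was saturated.

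**Figure D1:**
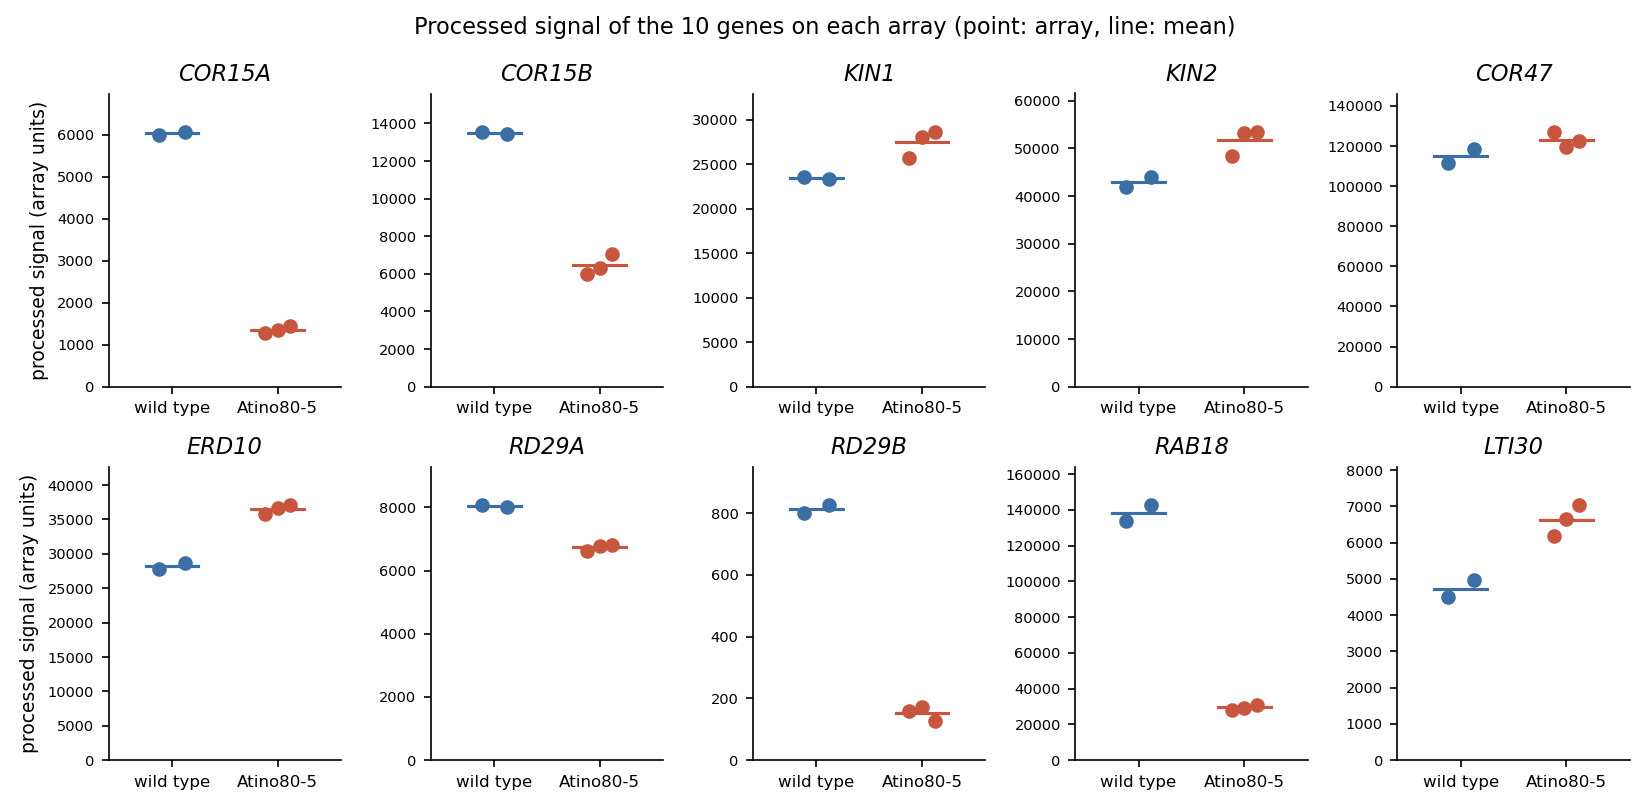
Processed signal (array units, linear axis from 0, each panel with its own scale) of the probe that represents each gene, with a point for each array and a line at the group mean. COR15A, COR15B, RD29B and RAB18 stand clearly apart between the genotypes, whereas the shifts of KIN1, KIN2, ERD10, RD29A and LTI30 are small against their level and COR47 hardly moves.

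The COR15 genes encode small chloroplast proteins that are strongly induced by cold. The processed signal of COR15A, its brightness after the scanner software had removed background, was 5998 and 6074 on the wild type arrays, against 1276, 1354 and 1434 on those of Atino80-5. All mutant arrays were far below both wild type arrays, which differed from each other by little. After scaling each array by its 75th percentile, COR15A fell by 2.202 ± 0.032 on the log2 scale (moderated SE, 2 wild type and 3 mutant arrays; adjusted p = 2.2e-05). COR15B, its neighbour in the genome and a close homologue, read 13561 and 13442 in wild type, against 5969, 6335 and 7062 in Atino80-5. The genotypes did not overlap for this gene either, and it fell by 1.11 ± 0.050 (adjusted p = 0.00015). In these whole seedlings, fewer cells that express a gene and less RNA per cell cannot be told apart, here and in the values that follow.

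KIN1 and KIN2 encode a pair of small, nearly identical hydrophilic proteins that resemble antifreeze proteins and are induced by cold and ABA. KIN1 signals were 23596 and 23303 in wild type, against 25726, 27990 and 28630 in Atino80-5. Those of KIN2 were 41949 and 43932 in wild type, against 48320, 53252 and 53511 in Atino80-5. For both genes every mutant array was above every wild type array, but the shift was small: KIN1 was 1.13-fold higher (log2 change 0.18 ± 0.033, adjusted p = 0.0092) and KIN2 1.17-fold higher (0.22 ± 0.042, adjusted p = 0.0104). Probe sequences were not used here, so the copies may share signal. Both calls were fragile. That of KIN1 was lost without wild type array 2 (log2 change 0.17, adjusted p = 0.057) and that of KIN2 without wild type array 1 (0.19, adjusted p = 0.061).

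COR47 and ERD10 are acidic dehydrins that lie side by side in the genome, and they respond to cold, drought and ABA. The brightest COR47 probe read 111598 and 118465 in wild type, against 127138, 119765 and 122299 in Atino80-5. Once the arrays were scaled the genotypes overlapped, and the log2 change of 0.05 ± 0.063 had a 95% interval from -0.11 to 0.22 (adjusted p = 0.51). ERD10 read 27733 and 28610 in wild type, against 35811, 36619 and 37073 in Atino80-5. Here the genotypes were well separated, and ERD10 rose by 0.33 ± 0.032, or 1.26-fold (adjusted p = 0.0013).

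LTI30 is a basic, lysine-rich and histidine-rich dehydrin of the cold response that binds membranes. Its signals were 4502 and 4961 in wild type, against 6178, 6662 and 7034 in Atino80-5. LTI30 rose by 0.44 ± 0.056, or 1.36-fold (adjusted p = 0.0030), the largest increase among the 10 genes on all 5 arrays.

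RAB18 is a dehydrin that is induced mainly by ABA and drought and that accumulates in seeds and guard cells. Its brightest probe read 133862 and 142588 in wild type, against 28296, 29446 and 30793 in Atino80-5. No mutant array came near the wild type arrays, and RAB18 fell by 2.27 ± 0.038 (adjusted p = 2.4e-05). The set thus holds dehydrins called lower (RAB18), called higher (ERD10 and LTI30) and not called (COR47, at its brightest probe) in the same seedlings. The other COR47 probes rose and passed the threshold over probes.

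RD29A and RD29B are adjacent, related genes whose promoters are textbook reporters. The RD29A promoter carries both DRE and ABRE elements and responds to cold, drought and ABA, while that of RD29B depends on ABRE elements and so on ABA. RD29A read 8066 and 8008 in wild type, against 6633, 6769 and 6816 in Atino80-5. It was lower on every mutant array, by 0.30 ± 0.031 on the log2 scale or 1.23-fold (log2 change -0.30, adjusted p = 0.0015). RD29B read 802 and 826 in wild type, against 159, 172 and 128 in Atino80-5. The lowest of these was on Atino80-5 array 3, the array alone on its slide, and the spread among the mutant arrays was the widest of the set (SD 0.26 log2). RD29B fell by 2.47 ± 0.16, or 5.53-fold (adjusted p = 0.00039). Within the slide that holds 2 arrays of each genotype it fell by 2.32.

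Among the genes are 4 neighbouring pairs with no other gene between them in the RefSeq annotation. The ratio of a pair within an array does not depend on the factor that scales the array, though quantile normalization or normexp can change it. The log2 ratio of COR15A to COR15B, relative to its wild type mean, was -0.02 and 0.02 in wild type and -1.06, -1.06 and -1.14 in Atino80-5, so COR15A fell 2.13-fold further than COR15B. The ratio of RD29B to RD29A was -0.03 and 0.03 in wild type and -2.08, -1.99 and -2.44 in Atino80-5, a 4.49-fold shift. Its size depended on the processing: RD29B and RD29A changed by -2.06 and -0.32 under normexp, and by -2.54 and -0.29 with quantile normalization. The ratio of COR47 to ERD10 was -0.02 and 0.02 in wild type and -0.20, -0.32 and -0.31 in Atino80-5. COR47 stands here for its brightest probe (log2 change 0.05), while its probes A_84_P10384 and A_84_P800991 rose by 0.15 and 0.18. The ratio at those probes was not computed. In these 3 pairs the genotypes did not overlap. The ratio of KIN1 to KIN2 was 0.04 and -0.04 in wild type and -0.04, -0.06 and -0.03 in Atino80-5, and here the genotypes overlapped. With 2 arrays against 3, an exact permutation test, made two-sided by taking 2 times the smaller one-sided p, cannot give a p below 0.2. It gave 0.2 for each of the first 3 pairs and 0.6 for KIN1 and KIN2 (0.27 and 0.6 adjusted over the 4 pairs), so the shifts are given by their size and by the separation of the arrays. The pairs were chosen after the values were seen.

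**Figure D2:**
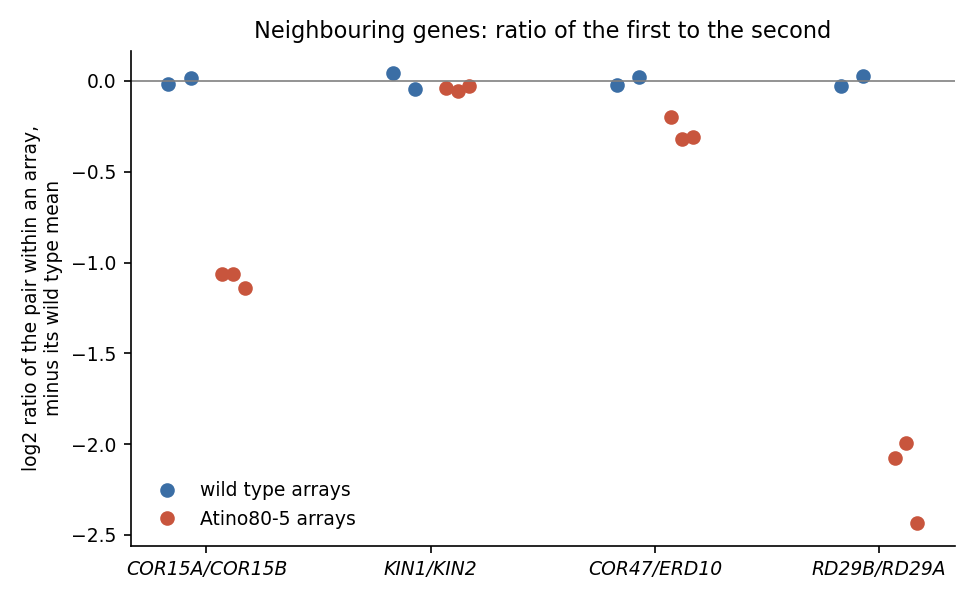
Log2 ratio of the first to the second gene of each neighbouring pair within an array, minus the wild type mean of that ratio, with a point for each array. The Atino80-5 arrays lie at -1.06 to -1.14 for COR15A/COR15B and at -1.99 to -2.44 for RD29B/RD29A, close to 0 for KIN1/KIN2 and between them for COR47/ERD10.

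The 10 genes were covered by 18 probes, and where a gene had several, the brightest represented it. The 4 RAB18 probes all fell, with log2 changes of -2.27 (A_84_P861274), -2.41 (A_84_P18843), -2.51 (A_84_P811915) and -0.90 (A_84_P811911). The last read 24410 and 23703 in wild type, against 12548, 13267 and 14014 in Atino80-5, a 1.87-fold fall against 4.83-fold at the brightest probe. The direction of RAB18 thus held at every probe, but its size did not. The second RD29A probe (A_84_P810125) fell by 0.27 and the second ERD10 probe (A_84_P857480) rose by 0.40. The other COR47 probes, A_84_P10384 and A_84_P800991, rose by 0.15 and 0.18 and passed the threshold over probes (adjusted p = 0.033 and 0.0048), which the brightest did not. The second KIN1 probe (A_84_P234853) was above background on 1 of 2 wild type and 2 of 3 Atino80-5 arrays and had a log2 change of -0.16 ± 0.17 (adjusted p = 0.47). COR15A, COR15B, KIN2, RD29B and LTI30 had 1 probe each, so their values have no check by another probe.

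**Figure D3:**
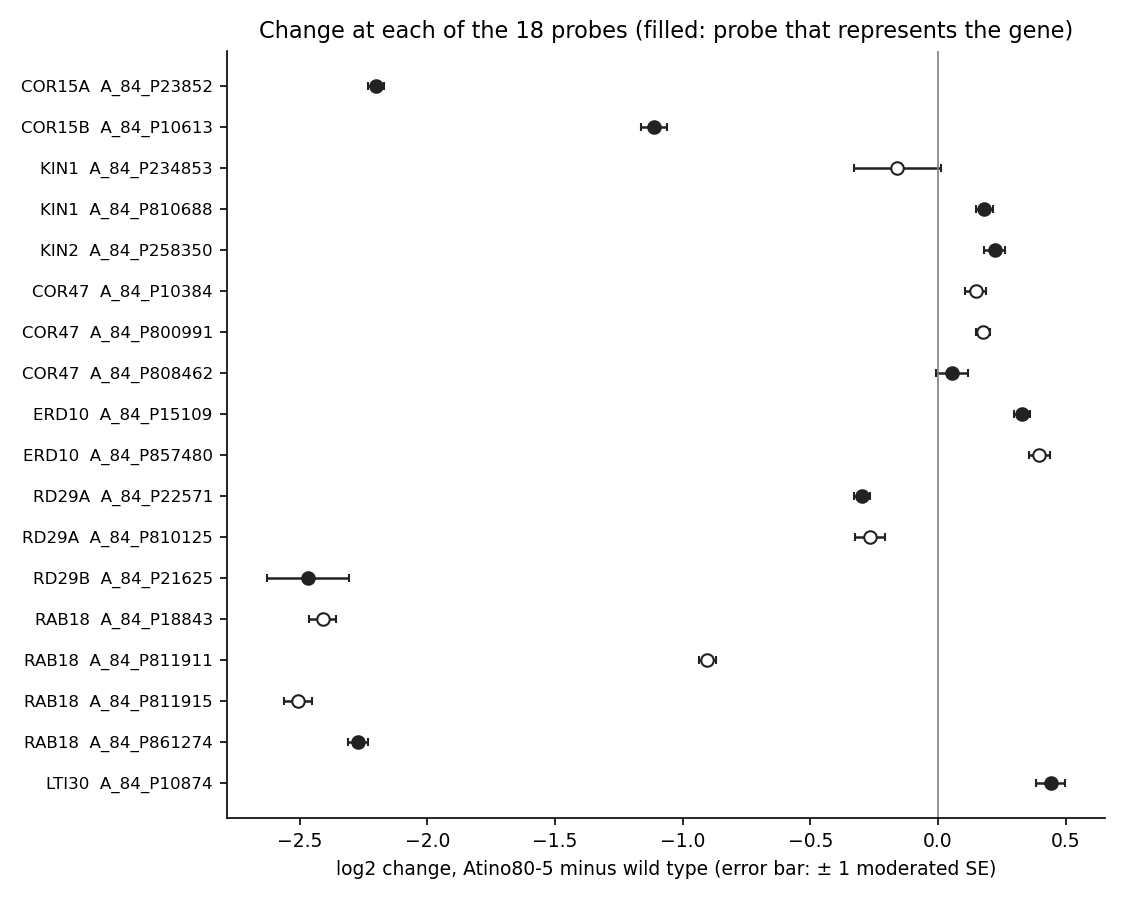
Log2 change, Atino80-5 minus wild type, at each of the 18 probes of the 10 genes, with bars of 1 moderated SE; filled points represent the gene. Probes of 1 gene lie close together except for A_84_P811911 of RAB18, at -0.90, and the dim KIN1 probe A_84_P234853, at -0.16.

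Related genes were set beside the 10 in 4 lists, each described by its counts against the 30.7% higher and 26.4% lower among all genes. Close relatives moved both ways: among 6 measured dehydrins and KIN-like genes, 3 were called higher and 2 lower, while 1 did not pass, with a median log2 change of 0.08. AT3G02480, a KIN-like gene that encodes a late embryogenesis abundant protein, fell by 2.94 ± 0.030, or 7.67-fold (adjusted p = 2.1e-05). The dehydrin genes AT4G38410 and AT2G21490 rose by 0.29 ± 0.046 (adjusted p = 0.0062) and 0.55 ± 0.105 (adjusted p = 0.0110). The change of AT2G21490 was 0.30 when the background was corrected by normexp, a model of signal plus background that shrinks changes of dim probes. Its call was lost without wild type array 1 (0.56, adjusted p = 0.055) or 2 (0.54, adjusted p = 0.058). The acidic dehydrin gene ERD14 had a log2 change of -0.33 and HIRD11, a small dehydrin that binds metal ions, of 0.30, both called on all arrays. Both calls were lost without wild type array 1 (adjusted p = 0.123 and 0.104) or 2 (adjusted p = 0.124 and 0.077), and that of ERD14 also without Atino80-5 array 2 (adjusted p = 0.077). The call of ERD14 was lost too in the authors' value table (adjusted p = 0.084), with quantile normalization (adjusted p = 0.085) and with no filter on dim probes (adjusted p = 0.067), and that of HIRD11 with the replicate number as a block (adjusted p = 0.063). XERO1, the dehydrin gene next to LTI30, read 119 and 129 in wild type, against 77.6, 77.1 and 269 in Atino80-5, the last on the array alone on its slide. It was not called (log2 change -0.13, adjusted p = 0.87). Without that array its change was -0.70 (adjusted p = 0.0030). ERD14, HIRD11 and XERO1 were named after their values were seen.

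Among 30 other cold and drought responsive genes, 10 were called higher and 15 lower, while 5 did not pass, with a median log2 change of -0.06. At least 2-fold changes were found for 1 that was higher and 6 that were lower, against 4.61% and 2.62% of all genes. LEA7, also of the late embryogenesis abundant class, read 21754 and 22321 in wild type, against 529, 498 and 519 in Atino80-5, a 44.1-fold fall (log2 change -5.46 ± 0.054, adjusted p = 2.1e-05). P5CS1, the rate-limiting enzyme of stress-induced proline synthesis, fell by 1.13 ± 0.024, or 2.19-fold (adjusted p = 3.1e-05). COR413IM1, a protein of the chloroplast inner envelope, fell by 1.35 ± 0.029, or 2.54-fold (adjusted p = 3.2e-05). LEA4-5, another gene of this class, fell by 3.39 ± 0.11 (adjusted p = 7.1e-05); under normexp its log2 change was -2.199. It was picked once its value was known.

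Upstream regulators, a list not sorted by whether a gene activates or represses its targets, were more often called higher than lower. Among 22 that were measured, 12 were called higher and 4 lower, while 6 did not pass, with a median log2 change of 0.24. At least 2-fold higher were 7 and at least 2-fold lower were 0, against 4.61% and 2.62% of all genes. The 4 called lower were DREB2B, ABF1, ABF2 and ABI5, while ABF3 was called higher, all named after their values were seen. CBF2 read 1914 and 1874 in wild type, against 8902, 8996 and 9186 in Atino80-5, and was 4.62-fold higher (log2 change 2.21 ± 0.030, adjusted p = 2.2e-05). DDF1, a relative of the CBF genes linked to salt stress and gibberellin, rose by 3.31 ± 0.029, or 9.94-fold (adjusted p = 2.1e-05). ZAT12, a zinc finger factor of cold and oxidative stress, rose by 1.61 ± 0.030, or 3.05-fold (adjusted p = 2.6e-05). Named after their values were seen, CBF1, CBF3, CBF4 and DDF2 were higher by 4.25-fold, 1.26-fold, 3.65-fold and 11.3-fold. Under normexp CBF4 and DDF2 changed by 1.099 and 1.91 log2 units, against 1.87 and 3.50. The same arrays on which CBF1 and CBF2 were more than 4-fold higher had COR15A 4.60-fold, COR15B 2.16-fold and RD29A 1.23-fold lower. KIN1, KIN2, ERD10 and LTI30 were higher by 1.13-fold to 1.36-fold, and COR47 was not called at its brightest probe. Whether the CBF genes had a part in these levels was not tested.

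Genes of ABA synthesis and signalling were more often called lower. Among 28 that were measured, 8 were called higher and 14 lower, while 6 did not pass, with a median log2 change of -0.13. By at least 2-fold, 1 was higher and 3 were lower, against 4.61% and 2.62% of all genes. HAI1 and HAI2, clade A phosphatases that ABA itself induces, had log2 changes of -2.04 ± 0.054 (adjusted p = 4.6e-05) and -2.41 ± 0.085 (adjusted p = 8.3e-05). Under normexp HAI2 fell by 1.48. CYP707A3, an ABA 8′-hydroxylase that breaks the hormone down, rose by 1.37 ± 0.031, or 2.59-fold (adjusted p = 3.4e-05). NCED3, the rate-limiting step of stress-induced ABA synthesis, had a log2 change of -0.45 ± 0.036. That of ABI5, an ABRE-binding factor of the regulator list, was -0.75 ± 0.042, and both were called lower. Other genes of hormone breakdown and synthesis went both ways. CYP707A1 and CYP707A2 were called higher (log2 change 0.28 and 0.59) and CYP707A4 lower (-0.95, adjusted p = 0.00013). Among synthesis genes, ABA1 and ABA3 were called higher (0.17 and 0.20) and ABA2 lower (-0.21), while NCED9 and AAO3 were not called. All genes from NCED3 on were named after their values were seen.

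**Figure D4:**
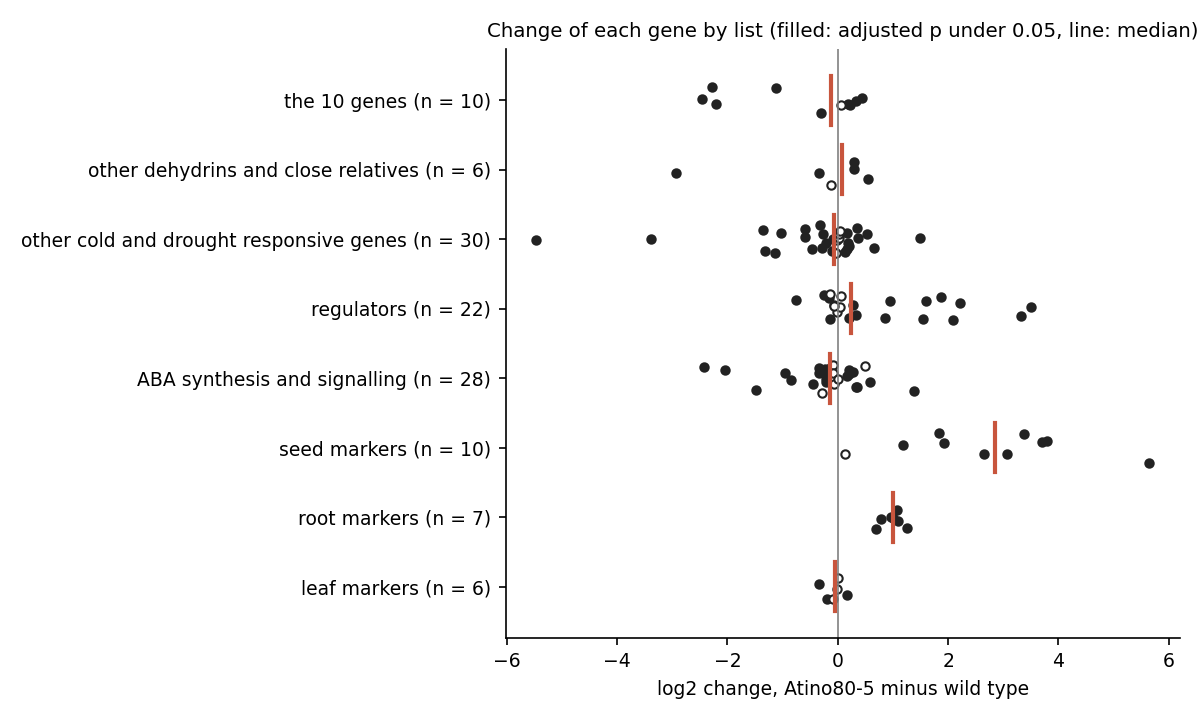
Log2 change, Atino80-5 minus wild type, of each measured gene in the 10 genes, the 4 related lists and 3 marker lists; filled points passed an adjusted p of 0.05 and lines are medians. The 10 genes spread from -2.47 to 0.44, the regulators reach 3.50, and the seed markers, of which several were below background in wild type, lie to the right.

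Markers of root, seed and leaf were read on the same arrays. Their counts stand beside 30.7% called higher and 26.4% called lower among all genes. All 7 root markers were higher, with a median log2 change of 1.01, and their summed scaled signal (in units of the 75th percentile) ranged from 0.626 to 0.691 in wild type and from 1.26 to 1.31 in Atino80-5. Of 10 seed storage and oleosin markers, 9 were higher and 1 not called, and their summed scaled signal was 0.0543 to 0.0658 in wild type and 0.210 to 0.232 in Atino80-5. CRU2, SESA1, SESA3, SESA4, SESA5 and OLEO1 were not well above background on any wild type array. They passed the filter through the Atino80-5 arrays alone, so a call of lower was not open to them in practice. The count of 9 is therefore not read as a result, nor is the summed signal of the 10 markers, which includes these genes. Of 6 leaf markers, 1 was higher, 2 lower and 3 not called, and their summed scaled signal was 571 to 575 in wild type and 534.5 to 551.5 in Atino80-5. Leaf and root markers were both present, as the label of whole seedlings states. RAB18, which also accumulates in seeds, was lower, and its relation to the seed markers was not tested. Of the seed markers above background on all 5 arrays, CRA1 and SESA2 were higher (log2 change 1.18 and 1.92) and OLEO2 was not called. The part of tissue composition in the changes of the 10 genes was not tested.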

How the data were processed

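RNA of 2 wild type and 3 Atino80-5 samples was hybridised, labelled with Cy3, to 1-colour arrays. The deposited scanner files give each spot's intensity after background subtraction and spatial detrending by the scanner software, per the file headers; arrays were not scaled to each other. The headers give Agilent Feature Extraction 10.7.3.1 and the submitters' processing notes 9.1. The authors' value table holds log2 values, which tracked the log2 processed signal of each array (correlation 0.9994 or more) and had the same 75th percentile, 12.15, in every column. The table was therefore taken as quantile normalized, without centring of genes, and used as an alternative. Its column medians were 9.6208, 9.6213, 9.6216, 9.6213 and 9.6213.

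The 1417 control spots and the outlier spots were left out, which left 43603 probes. Log2 processed signals were scaled by each array's 75th percentile. A total of 35203 probes passed the filter, which asked for 2 or more arrays well above background. Accessions were matched to RefSeq loci of assembly TAIR10.1, used for names, neighbours and the grouping of probes into genes. Of the probes, 34267 matched 1 locus. The brightest kept probe represented a gene. The genotypes were compared in R 4.3.3 with lmFit and eBayes of limma 3.58.1 (3 residual degrees of freedom, 4.55 with the prior), with Benjamini-Hochberg adjustment over all genes. The code was tested on simulated data. The number of arrays limits the precision.

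The 10 genes and all lists were chosen with earlier results of these data known. Named genes are the 10, INO80 and the 3 with the smallest p of each related list; others are stated to have been chosen after their values were seen. Alternatives covered background correction (normexp on the median signals, offset 50), scaling, filtering, probe choice, variance model, slide, replicate number, each array left out in turn, a 2-fold minimum and the authors' table.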

Additional observations from a re-analysis of the deposited data

How the results depend on the processing

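Of 168 recomputed changes of the 10 genes, 159 kept their direction and their side of the threshold. These are not 168 separate checks. The slide as a block and the slide 1 arrays alone gave the same fit. The replicate block and the fit without Atino80-5 array 3 gave the same changes as well. The alternative filters and variance model left each log2 change as it was, so only the side of the threshold could move. COR15A, COR15B, ERD10, RD29A, RD29B, RAB18 and LTI30 kept direction and side in each of their refits. However, ERD10, LTI30 and RD29A changed less than 2-fold and so lost their calls with a 2-fold minimum. The other exceptions were as follows, and their cause was not tested unless stated. The KIN1 change was 0.0111 (adjusted p = 0.92) with the mean of its probes and -0.16 at the dim probe A_84_P234853, which is the probe that lowers that mean; over its alternatives the adjusted p ranged from 0.00067 to 0.92. Leaving out 1 array gave KIN1 changes of 0.17 to 0.20 and KIN2 changes of 0.19 to 0.26. COR47 was -0.0054 (adjusted p = 0.95) with median scaling, and it was called with the mean of its probes (0.13, adjusted p = 0.039) and at A_84_P10384 (0.15) and A_84_P800991 (0.18). The number of genes called higher among the 10 was 3 or 4, and 0 with a 2-fold minimum; the number called lower was 5, and 4 with a 2-fold minimum. That minimum left 1229 higher and 698 lower genes on the whole array, and 9 higher and 10 lower genes of the related lists, where the main counts were 33 and 35. Whole-array counts otherwise ranged from 6328 to 8700 higher and from 4858 to 9044 lower. With each array scaled by its median, 42.9% of all calls were higher, against 53.8%, and the median change of all genes was -0.05. Leaving out 1 array gave XERO1 changes of -0.70 to 0.18 (0.15 and 0.18 without Atino80-5 array 1 and 2). Without wild type array 1 or 2 another, rising probe stood for INO80 (1.95 or 1.86, against -7.38 at the lowest without another array). With the replicate number as a block, KIN1 had a change of 0.18 (adjusted p = 0.073) and 3 genes of the set were called higher. Deviations of same-numbered arrays from their group means correlated at 0.04 and 0.01 in 2 pairs. With 2 wild type arrays their deviations mirror each other, so these correlations cannot decide whether the numbers pair the arrays. The main fit did not pair them. The columns used hold no mean spot signals, so normexp used median signals. Near background, where normexp shrinks changes, RD29B fell by 2.06.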
